A study of Arabidopsis thaliana with 3 samples.

Results

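Transposable elements are DNA sequences that can move or copy themselves within a genome, and the annotation of *Arabidopsis* lists their coding remains as genes of their own. The deposited table holds 3923 genes described as a transposable element gene or a transposon. Of these, 138 had at least 10 reads in at least 1 of 3 libraries and are described here. They were chosen by the read counts themselves, so the fact that they were expressed is a description and not a result. They make up 3.52% of the transposable element genes, and the other 3785 comprise 3417 with 0 reads in all libraries and 368 that reached at most 1 to 9 reads. Among the remaining 29679 genes of the table, 62.9% passed the same minimum.

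The libraries came from the aerial parts of unstressed plants aged 4 weeks, grown at 22°C with 16 h light and 8 h dark, and each was made from a pool of 20 plants. OE line #3 and OE line #6 are transgenic lines in the Col-0 background that express *SlHsfA3*, a heat stress transcription factor of tomato, from the constitutive 35S promoter, and Col-0 is the wild type. There was 1 library for each genotype. In the test, line #3 and line #6 stood in for repeats of 1 group. The spread behind each p-value came in part from the difference between their pools (1 residual degree of freedom). The other part was shared over all genes that passed the read minimum (13.6 prior degrees of freedom). Col-0, with a single pool, has no spread of its own.

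Plants keep most transposable elements silent by DNA methylation, repressive histone marks and small RNAs. Elements of class I, the retrotransposons, move through an RNA copy, and copia elements among them are flanked by long terminal repeats that hold the promoter. Elements of class II are cut out and inserted as DNA, as hAT and Mutator elements are. Domesticated families such as MUSTANG derive from a transposase but are kept by plants as ordinary genes. ONSEN (ATCOPIA78) is a copia family of *Arabidopsis* that is known to be transcribed after heat stress, through heat shock elements in its long terminal repeats to which heat stress transcription factors bind.

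Reads in genes came to 11556077 in line #3, 10786332 in line #6 and 9968154 in Col-0. A count of 0 allows a level of up to 0.275, 0.258 and 0.307 CPM (reads scaled to a library size of 1000000 after TMM normalization) in the same order, for counting error only. The shoot markers *RBCS1A*, *LHCB1.3* and *CA1* were abundant in all libraries, with 5355 to 88520 reads each. Of the markers of other tissues, the 3 tapetum and pollen coat genes summed to 81.4 CPM in line #3 and 1.89 CPM in line #6, against 19.4 CPM in Col-0. The 9 mature pollen genes summed to 4.86 and 1.38 CPM in lines #3 and #6, against 1.84 CPM in Col-0, and *ADF7* was at 0 in all libraries. The 3 seed and 3 root genes had 0 to 4 reads in sum in each library. The flower-related markers thus differed most between the OE lines, and their part in the results was not tested. Both lines are therefore given for each called gene.

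The description gave an element class for only a few members. It read "transposable element gene" and no more for 133 of them. With the descriptions and the symbols and names of RefSeq, 8 members belonged to MUSTANG, 11 to Sadhu and 4 to the hAT superfamily. The 5 ONSEN members came from a list of loci fixed from general knowledge, and 4 others were taken as copia-like. Of these 4, AT4G04410 and AT4G16870 were put in the class by locus, and the study lists both as copia-like among its raised genes. No class was given for the other 106. RefSeq lists 131 members as pseudogenes and 7 as protein coding. They lay on all nuclear chromosomes, with 19 on chromosome 4 to 35 on chromosome 1.

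Expressed members lay close to other expressed genes. The median distance to the nearest tested gene that is not a transposable element gene was 968.5 bases for the members, against 19673 bases for the other transposable element genes. Within 1000 bases of such a gene lay 51.4% of the members and 7.90% of the other transposable element genes. The gene models of members were longer, with a median of 2652 bases against 1909 bases. These differences in position and length are descriptions. In addition, 35 members overlapped another annotated gene, and for 26 of them a gene on the opposite strand. Overlaps were not counted for the other transposable element genes, so this is no trait particular to the members. No strand-marking step is named in the library protocol, and the reads of such pairs cannot be told apart.

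Most members were not repeated sequence. In 85 of the 138, every stretch of 100 bases occurred once in the genome, chloroplast and mitochondrial sequences included, and in 119 more than 90% of them did. In 11 members (7.97%) fewer than 50% did, against 8.78% of the other transposable element genes. How the authors counted reads with several possible origins is not given in the sources used here, so counts of those members are uncertain. For example, AT1G58889 and AT1G59265 were identical over 4428 bases, yet had 40 and 24 reads against 16 in Col-0 for AT1G58889, and 23 and 26 reads against 9 in Col-0 for AT1G59265, with line #3 before line #6.

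Levels of the members were low. Per length, the median member had an RPKM (CPM divided by the length of the gene model in kilobases) of 1.18 in line #3 and 1.07 in line #6, against 1.11 in Col-0, while the median of the other tested genes was 7.88 and 7.80 in these lines and 7.86 in Col-0. The mean RPKM over the libraries ranged from 0.0626 to 88.3, with 65 members under 1 and 20 over 5. AT2G07080, which lies on chromosome 2 and has no class in the annotation, took 22.8% of all reads of the members. It had 2718 and 2657 reads in lines #3 and #6, against 2034 in Col-0, that is 249 and 229 CPM against 208 CPM. The 95% counting interval of its ratio to Col-0 was 1.13 to 1.27 in line #3 and 1.04 to 1.16 in line #6. The test across genes did not call it (edgeR: log2 fold change 0.20 with SE 0.20 and adjusted p 0.918). The 10 members with the most reads held 51.1% of the members' reads.

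The 10 members with the highest mean RPKM came from several groups, and with the exception of AT2G11240, which is described with the called genes, none of them was called. After AT2G07080, at a mean RPKM of 88.3, came *SADHU1-1* (38.5), AT1G80020 (17.1), *SADHU1-2* (9.91), AT2G11240 (9.27), AT2G04460 (8.12), the hAT gene AT1G79740 (7.30), *MUG1* (7.27), *MUG7* (7.24) and *MUG4* (6.83). AT1G80020 had 602 and 707 reads in lines #3 and #6 against 583 in Col-0, and the 95% counting interval of its ratio to Col-0 was 0.824 to 1.04 in line #3 and 0.912 to 1.14 in line #6. AT2G04460 had 111 and 142 reads in lines #3 and #6 against 129 in Col-0. Below AT2G11240, these genes lie close together in level, and from AT2G04460 on the range of each over the libraries overlaps that of the next.

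The question of the comparison was which of these genes differed between plants that overexpress *SlHsfA3* and Col-0. Reads were compared between both OE lines and Col-0 with edgeR's quasi-likelihood test over all 18802 genes that passed the read minimum, with Benjamini-Hochberg adjustment. At an adjusted p under 0.05, 3 members rose and 1 fell, that is 2.17% and 0.725% of the 138. Over all tested genes, 0.229% were higher and 0.197% lower by the same rule. AT4G04410, AT4G16870 and AT2G11240 rose, and AT5G35935 fell. All stretches of 100 bases in these 4 genes occurred once in the genome. The other 134 members were not called, and at an unadjusted p under 0.05 there were 11 higher and 8 lower in all, or 13.8% of the members against 7.38% of all tested genes. Some of these, such as AT3G05415 and AT5G35935, passed the read minimum only through the genotype where they were high. The median member also had far fewer reads than the median tested gene, so the shares of members and of all tested genes are not comparable.

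**Figure D1:**
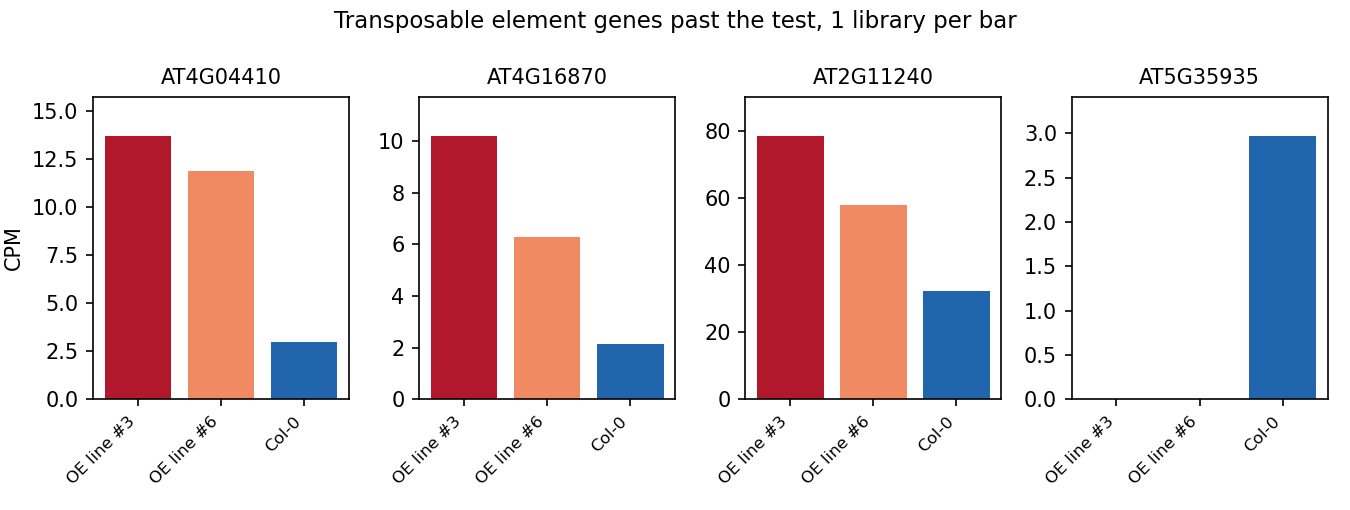
CPM after TMM scaling (vertical axis, separate scale for each gene) of the 4 transposable element genes that passed the test, with 1 library per bar and no error bar since each library is 1 pool. Bars run from OE line #3 and OE line #6 to Col-0, and AT5G35935 had 0 reads in both OE lines.

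AT4G04410 is a copia-like gene model of 4249 bases on chromosome 4 (2189515 to 2193763, TAIR10.1, plus strand). It had 149 reads in line #3 and 138 in line #6, against 29 in Col-0, and both lines stood well above Col-0. Its level was 12.8 ± 1.27 CPM (SD, n = 2 lines) in the OE lines against 2.97 CPM in Col-0, and edgeR gave a log2 fold change of 2.10 with an SE of 0.30 and an adjusted p of 0.00277. The ratio to Col-0 was 4.60 in line #3 (95% counting interval 3.08 to 7.11) and 4.00 in line #6 (2.66 to 6.19). Its neighbors in the table did not share these levels. AT4G04409, a histone pseudogene, had 2 and 3 reads in lines #3 and #6 against 1 in Col-0, and the transposable element gene AT4G04420 had 1 and 1 against 0. The nearest tested gene that is no transposable element lay 30659 bases away.

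AT4G16870 is a copia-like gene model of 4443 bases on chromosome 4 (9483955 to 9488397, TAIR10.1, minus strand), 69 bases from *RPP4* (AT4G16860), which encodes a disease resistance protein of the TIR-NBS-LRR class. It had 111 reads in line #3 and 73 in line #6, against 21 in Col-0. Both lines were higher than Col-0, with a ratio of 4.74 in line #3 (95% counting interval 2.95 to 7.95) and 2.92 in line #6 (lower bound 1.78). The lines also differed from each other beyond counting error (line #6 over line #3 0.617, interval 0.453 to 0.837). The level was 8.23 ± 2.76 CPM (SD, n = 2 lines) in the OE lines against 2.15 CPM in Col-0, and edgeR gave a log2 fold change of 1.93 with an SE of 0.39 and an adjusted p of 0.0488. This call was lost with DESeq2 (adjusted p = 0.591) and with both other read minimums (adjusted p of 0.099 and 0.136 from edgeR). *RPP4* had 443 and 418 reads in lines #3 and #6 against 481 in Col-0 (edgeR: log2 fold change -0.36 with SE 0.18), and it was not called.

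AT2G11240 is a gene model of 6063 bases without a class on chromosome 2 (4477686 to 4483748, TAIR10.1, minus strand). Among the called genes it had by far the most reads, with 856 in line #3 and 672 in line #6 against 316 in Col-0. The level was 68.1 ± 14.6 CPM (SD, n = 2 lines) in the OE lines against 32.3 CPM in Col-0, and edgeR gave a log2 fold change of 1.07 with an SE of 0.22 and an adjusted p of 0.0467. The ratio to Col-0 was 2.43 in line #3 (95% counting interval 2.13 to 2.77) and 1.79 in line #6 (1.56 to 2.05), and the lines differed from each other beyond counting error (line #6 over line #3 0.737, interval 0.665 to 0.816). The call was lost under 4 of the 6 alternatives, among them DESeq2 (adjusted p = 0.102) and scaling by total reads (adjusted p = 0.145 from edgeR). RefSeq places AT2G11225, a gene on the opposite strand that was not analysed here, over 5044 of its bases, so its reads cannot be told from those of that gene.

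AT5G35935 is a gene model of 6504 bases without a class on chromosome 5 (14083388 to 14089891, TAIR10.1, minus strand). It had 0 reads in line #3 and 0 in line #6, against 29 reads in Col-0, and was the only member with no read in 1 genotype and at least 20 in a library of the other. It passed the read minimum only through Col-0. The 2.97 CPM of Col-0 was 22.3-fold the level that 3 reads over the 2 lines would give, a figure that leaves out the counting error of Col-0. With that error included, the counting interval of the ratio of both OE lines to Col-0 had an upper bound of 0.0588. The adjusted p was 0.00850 with edgeR, and DESeq2 gave no adjusted p. Its neighbors AT5G35932 (0 reads in all libraries) and AT5G35940, a lectin gene (0 and 0 reads in lines #3 and #6 against 1 in Col-0), had at most 1 read in any library.

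The sequence before these gene models is shown because heat stress transcription factors bind heat shock elements. Whether it acts as a promoter was not tested. In the 500 bases before the gene start in RefSeq's TAIR10.1, the letters GAANNTTC or TTCNNGAA were found on either strand in 31.2% of the members, against 29.5% of the other transposable element genes and 30.7% of all 37899 nuclear genes. AT4G04410 is flanked by direct repeats of 391 bases that were 100% identical, of the kind that copia elements carry. The first repeat lies 537 to 147 bases before its start. TTCTAGAA at 459 bases before the start falls in this repeat, and TTCAAGAA at 46 bases falls between the repeat and the start. AT4G16870 has direct repeats of 130 bases (100% identical) and none of these letters in its 500 bases. No direct repeat was found beside AT2G11240 and AT5G35935. The stretches before these genes read as follows, with the heat shock element letters in capitals, and AT4G04410 covers chr4:2189030-2189089 and chr4:2189443-2189502, AT2G11240 chr2:4483903-4483962 and AT5G35935 chr5:14089993-14090052.
AT4G04410, 485 to 426 bases before the start: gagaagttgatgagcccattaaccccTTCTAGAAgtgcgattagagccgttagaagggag
AT4G04410, 72 to 13 bases before the start: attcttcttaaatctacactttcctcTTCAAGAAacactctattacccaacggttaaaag
AT2G11240, 214 to 155 bases before the start: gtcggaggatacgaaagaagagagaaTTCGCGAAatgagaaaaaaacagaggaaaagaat
AT5G35935, 161 to 102 bases before the start: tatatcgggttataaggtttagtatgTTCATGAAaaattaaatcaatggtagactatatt

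Both copia-like genes that rose carried the primer binding site letters TGGTATCA, where the initiator tRNA primes reverse transcription in copia elements. These letters were found in the 500 bases before 18.1% of the members, 7.51% of the other transposable element genes and 2.44% of all nuclear genes, on either strand. The stretches of the 3 copia-like genes are shown with these letters in capitals, and they lie at chr4:2189343-2189402, chr4:9488425-9488484 and chr4:1317022-1317081 of TAIR10.1.
AT4G04410, 172 to 113 bases before the start: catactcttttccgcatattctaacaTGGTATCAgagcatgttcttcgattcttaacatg
AT4G16870, 87 to 28 bases before the start: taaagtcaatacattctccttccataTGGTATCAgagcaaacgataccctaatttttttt
AT4G02960 (RE2), 98 to 39 bases before the start: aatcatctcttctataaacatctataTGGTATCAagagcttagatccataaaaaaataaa

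*RE2* (AT4G02960), a retroelement with the same letters and direct repeats of 166 bases (99.4% identical), was not called and lay on the other side of Col-0. It had 1 read in line #3 and 0 in line #6, against 12 in Col-0, and passed the read minimum only through Col-0. The 95% counting interval of its ratio to Col-0 was 0.00175 to 0.505 in line #3, and the adjusted p was 0.257 with edgeR. AT1G21280, the fourth copia-like member, had 30 and 22 reads in lines #3 and #6 against 30 in Col-0 (edgeR: log2 fold change -0.41 with SE 0.44). It lies inside the annotated span of *WAK2*, a wall-associated kinase gene on the opposite strand. The 4 copia-like members outside ONSEN thus comprised 2 that rose and 2 that were not called. The 2 that rose were put in this class by locus and are among the study's raised genes, and most members have no class. This share therefore does not describe copia elements in general.

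**Figure D2:**
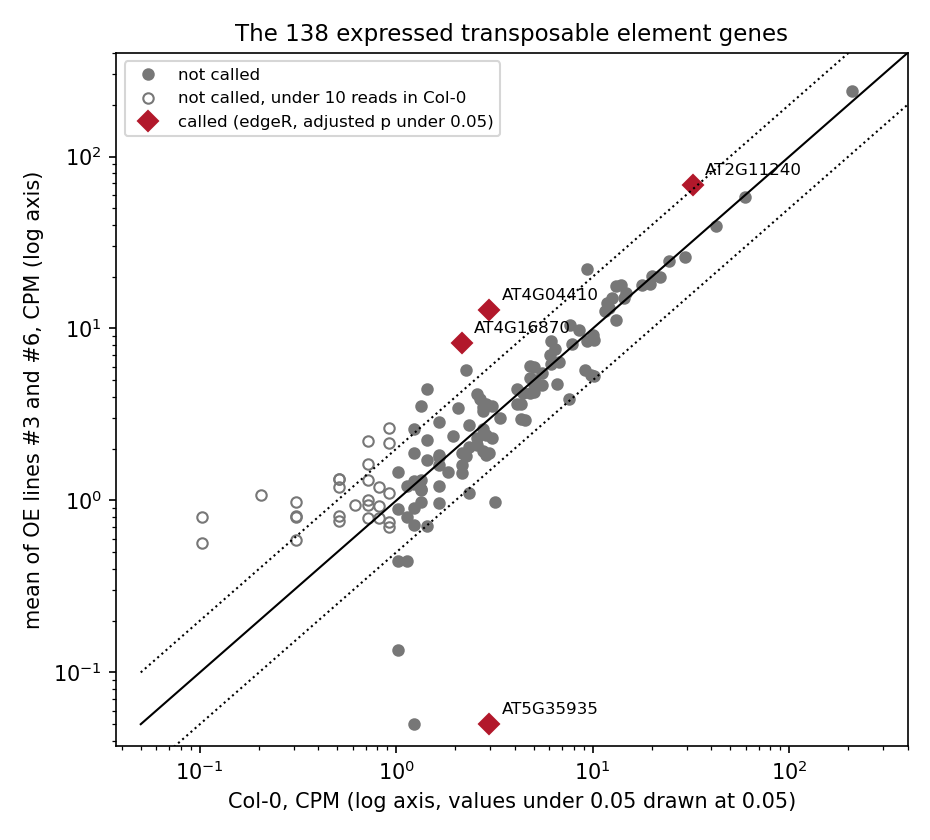
Mean CPM of OE lines #3 and #6 (vertical, log axis) against CPM of Col-0 (horizontal, log axis), 1 point per member, with values under 0.05 drawn at 0.05. The solid line marks equal levels and the dotted lines a 2-fold difference. Diamonds mark the 4 called genes, and open circles mark members with under 10 reads in Col-0.

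Counted gene by gene, the members had no common direction. Relative to Col-0, 55 members were higher in both lines, 47 were lower in both, and in 36 the Col-0 level lay between those of the lines or was equal to one. The median log2 fold change was 0.03 for the members and 0.01 for all tested genes. The reads of all members summed to 11695 in line #3 and 11620 in line #6, against 9183 in Col-0, or 0.101%, 0.108% and 0.0921% of the reads in genes. More than 2-fold above Col-0 in each line were 16 members (11.6%), against 1.38% of all tested genes, and below 0.5 of Col-0 in each line were 6 (4.35%), against 0.718%. Of the 16, however, 11 had under 10 reads in Col-0, and of the 6, 5 had under 10 reads in both lines, so that these members passed the minimum only through the genotype where they were high. The median member had 31 and 28 reads in lines #3 and #6 and 25 in Col-0, while the median tested gene had 135 and 141 reads in these lines and 119 in Col-0, so these shares are not comparable.

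Behind the called genes stood members whose unadjusted p was small, chosen for mention after their values were seen. AT3G43690 had 66 and 63 reads in lines #3 and #6 against 22 in Col-0 (edgeR: log2 fold change 1.34 with SE 0.36 and adjusted p 0.227), and its ratio to Col-0 was 2.69 in line #3 (95% counting interval 1.64 to 4.57) and 2.41 in line #6 (1.46 to 4.11). AT2G12490 had 61 and 38 reads in lines #3 and #6 against 14 in Col-0, and AT1G47565 had 42 and 38 against 13. On the other side, AT4G06477 had 12 and 10 reads against 31 in Col-0 (edgeR: log2 fold change -1.69 with SE 0.53 and adjusted p 0.327), and AT5G34851 had 44 and 44 reads against 74 in Col-0. In all of these the OE lines stood on the same side of Col-0, and none passed the adjusted test.

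The read minimum left members close to it on both sides. There were 8 members whose highest count was exactly 10 and 10 transposable element genes whose highest count was 9. Just inside, AT5G34800 had 10 and 3 reads in lines #3 and #6 against 3 in Col-0. Just outside, AT2G12540 had 9 and 2 reads against 1 in Col-0. In all 3 libraries 100 members had at least 10 reads, in 2 libraries 15 did, and in 1 library 23 did. Only through the OE lines passed 27 members, and only through Col-0 6 members.

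The 8 *MUSTANG* genes (*MUG1* to *MUG8*), domesticated from a Mutator transposase, were all among the members. Their reads summed to 1195 in line #3 and 1310 in line #6 against 1104 in Col-0, and the ratio to Col-0 was 0.970 in line #3 (95% counting interval 0.893 to 1.05) and 0.997 in line #6 (0.920 to 1.08). None was called by edgeR or DESeq2, with 0 at an unadjusted p under 0.05, and their log2 fold changes ranged from -0.53 to 0.41 with a median of -0.13. *MUG1* (AT3G04605), which had the most reads, had 271 and 313 reads in lines #3 and #6 against 288 in Col-0. *MUG4* (AT5G16505) had 188 and 208 reads against 129 in Col-0, the highest ratio of the family, with a smallest adjusted p of 0.726 from edgeR.

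Per length, the levels of the families overlapped. The mean RPKM was 0.949 to 7.27 for the *MUSTANG* genes, 3.92 to 7.30 for the hAT genes and 0.481 to 38.5 for the Sadhu genes. Of these, 5 *MUG* genes had an RPKM above 5 in every library, namely *MUG1*, *MUG7*, *MUG4*, *MUG5* and *MUG8*. *SADHU1-1* (AT2G10410) was the highest of its family, with an RPKM of 31.5 in line #3 and 43.5 in line #6 against 40.4 in Col-0, and the OE lines lay on either side of Col-0.

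**Figure D3:**
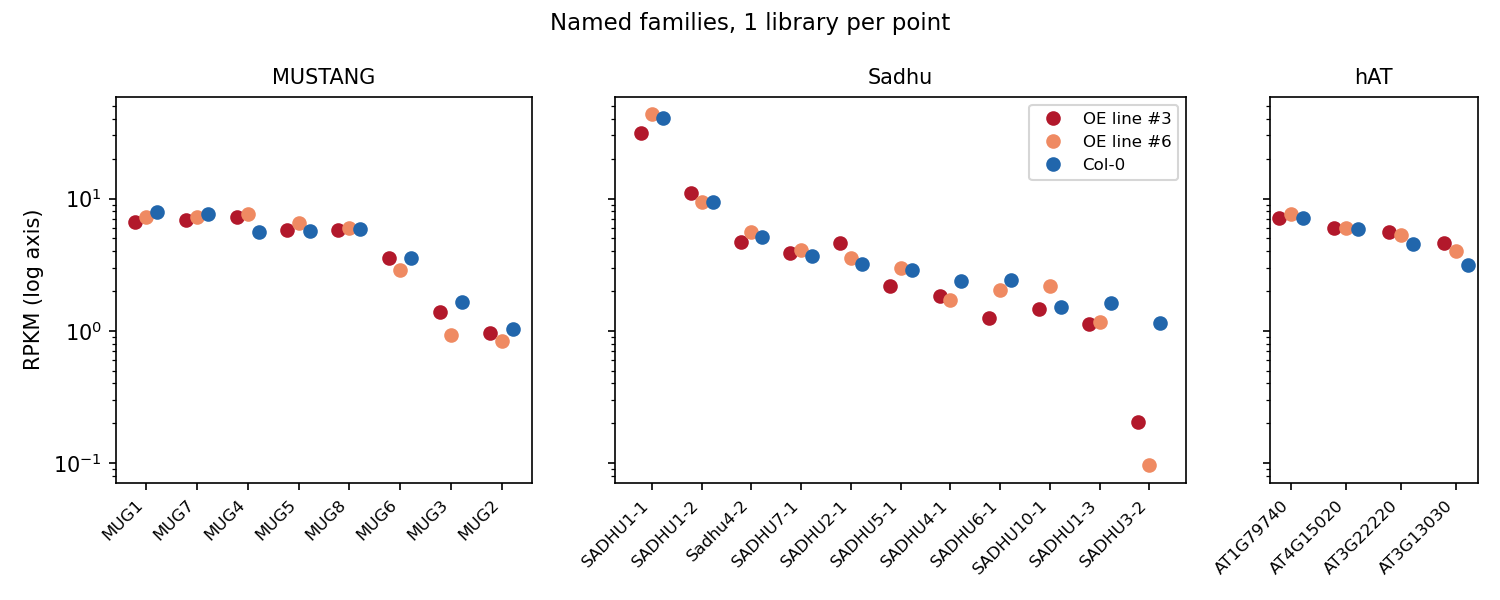
RPKM after TMM scaling (log axis) of the MUSTANG, Sadhu and hAT members, with 1 library per point and points from OE line #3 and OE line #6 to Col-0. Genes are ordered by their mean within each family, from 7.27 to 0.949 for MUSTANG, and most genes have their 3 points close together except *SADHU3-2*.

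Sadhu elements are short non-coding retrotransposons, and 11 of the 16 of the table were expressed. Their reads summed to 752 in line #3 and 949 in line #6, against 773 in Col-0, and the ratio to Col-0 was 0.872 in line #3 (95% counting interval 0.787 to 0.965) and 1.03 in line #6 (0.937 to 1.14). None was called by edgeR or DESeq2, with 1 lower at an unadjusted p under 0.05. In both lines, 4 were below Col-0 and 2 above it. *SADHU1-1* lay 223660 bases from the nearest tested gene that is no transposable element gene. *SADHU3-2* (AT3G42658), which is known as an epigenetically regulated copy, had 2 reads in line #3 and 1 in line #6 against 10 in Col-0 (edgeR: log2 fold change -2.84 with SE 1.11 and adjusted p 0.531). It passed the read minimum through Col-0 alone. *SADHU1-2* (AT1G30835) had 155 and 140 reads in lines #3 and #6 against 118 in Col-0, with a ratio of 1.18 in line #3 (95% counting interval 0.920 to 1.51) and 0.997 in line #6 (0.775 to 1.29).

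Of the hAT superfamily, whose transposases act on short inverted terminal repeats, 4 of the 9 genes in the table were expressed. Their reads summed to 621 in line #3 and 655 in line #6, against 500 in Col-0, that is 56.9 and 56.3 CPM against 51.2 CPM. The 95% counting interval of the ratio was 0.987 to 1.25 in line #3 and 0.979 to 1.24 in line #6. None was called by edgeR or DESeq2, with 0 at an unadjusted p under 0.05. AT4G15020 had 196 and 210 reads in lines #3 and #6 against 175 in Col-0 and AT1G79740 had 158 and 182 against 142. AT3G13030 had the largest log2 fold change of the family, 0.46 (SE 0.27), and the smallest adjusted p was 0.800 from edgeR.

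The ONSEN family is shown with its sequence because SlHsfA3 is a heat stress transcription factor. Of its 8 gene models, 5 were members and 3 stayed under the read minimum, with at most 9 reads in AT1G48710, 7 in AT3G59720 and 5 in AT3G32415. The copies lay on chromosomes 1, 3 and 5, were 97.5% to 99.9% identical to AT1G11265, and were flanked by repeats that begin about 470 bases before the start in most copies. In the members, AT1G11265, AT3G61330 and AT5G13205 held TTCTAGAA at a pair of places in this repeat and AT1G21945 and AT1G58140 at 1 place. A stretch of 60 bases from the repeat of each member is given from RefSeq's TAIR10.1 in the direction of the gene, with TTCTAGAA in capitals.
AT1G11265 (chr1:3780888-3780947): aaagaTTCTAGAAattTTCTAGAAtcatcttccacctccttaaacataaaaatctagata
AT3G61330 (chr3:22700339-22700398): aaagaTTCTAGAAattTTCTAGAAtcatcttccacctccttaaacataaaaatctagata
AT5G13205 (chr5:4212902-4212961): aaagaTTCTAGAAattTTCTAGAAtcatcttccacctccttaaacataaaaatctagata
AT1G21945 (chr1:7717479-7717538): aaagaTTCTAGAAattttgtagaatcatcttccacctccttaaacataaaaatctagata
AT1G58140 (chr1:21529672-21529731): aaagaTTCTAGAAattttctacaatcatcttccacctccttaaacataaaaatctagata

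The ONSEN copies had few reads in these unstressed plants. None of the members among them was called by edgeR, with 1 higher at an unadjusted p under 0.05. DESeq2 gave an adjusted p to AT1G21945 only, which it did not call, so it could not have called the other copies. Over all 8 copies there were 127 reads in line #3 and 98 in line #6, against 80 in Col-0, that is 11.6 and 8.43 CPM against 8.19 CPM. The ratio to Col-0 was 1.42 in line #3 (95% counting interval 1.07 to 1.91) and 1.03 in line #6 (0.759 to 1.40). AT1G21945 took the largest part, with 57 and 38 reads in lines #3 and #6 against 49 in Col-0. Without it, the ratio was 2.02 in line #3 (1.31 to 3.20) and 1.63 in line #6 (1.04 to 2.60), from 70 and 60 reads against 31 in Col-0, and this sum was chosen after the values were seen.

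Single ONSEN copies had wide intervals. AT5G13205 had 16 reads in line #3 and 21 in line #6 against 7 in Col-0, and edgeR gave a log2 fold change of 1.18 with an SE of 0.69 and an adjusted p of 0.794. AT1G58140 had 10 and 8 reads in lines #3 and #6 against 1 in Col-0, and its ratio to Col-0 ran from 1.27 to 389 in line #3 (95% counting interval). AT1G11265 had 10 and 7 reads against 5 in Col-0 and AT3G61330 had 13 and 8 against 6. AT1G11265 lies inside the annotated span of AT1G11270 on the opposite strand, so their reads cannot be told apart. AT1G11270 had 18 and 15 reads in lines #3 and #6 against 14 in Col-0. Only 0.8% to 42.8% of the 100-base stretches of the members occurred once in the genome, so a read of 1 copy may have been counted for another.

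**Figure D4:**
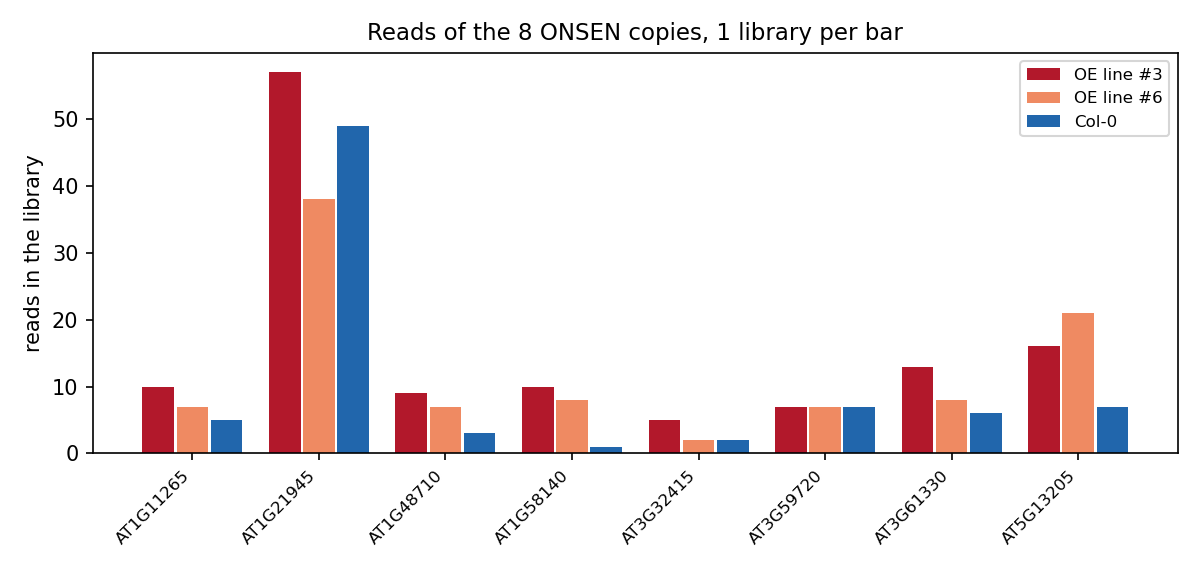
Reads (vertical axis, from 0) of the 8 ONSEN copies in each library, as bars for OE line #3, OE line #6 and Col-0, without error bars since each library is 1 pool. AT1G21945 stands above the others with 57, 38 and 49 reads, and the other copies have 1 to 21 reads.

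Between the OE lines, the members that differed most were named among the 82 with a mean of at least 20 reads over the libraries. AT1G58561 had 329 reads in line #3 and 169 in line #6, against 91 in Col-0, and line #6 stood at 0.482 of line #3 (95% counting interval 0.398 to 0.582). It lies inside the annotated span of AT1G58602, a disease resistance gene on the same strand, which had 2577 and 2587 reads in lines #3 and #6 against 1973 in Col-0. The ratio of AT1G58561 to Col-0 was 3.24 in line #3 (2.56 to 4.13) and 1.56 in line #6 (upper bound 2.04), and the test of both lines did not call it (adjusted p = 0.231 from edgeR), whereas scaling by total reads did (adjusted p = 0.0178 from edgeR). AT2G04135 had 11 reads in line #3 and 32 in line #6 against 29 in Col-0, with line #6 at 2.73 of line #3 (1.34 to 6.00). AT5G47445 had 26 reads in line #3 and 49 in line #6 against 27 in Col-0, and AT1G25430 had 46 and 74 against 99, and AT1G25430 lay below Col-0 in both lines. AT5G50315 had 31 reads in line #3 and 16 in line #6 against 25 in Col-0, and shares 452 bases with *ELO3* on the opposite strand. With these 3, the other 8 members named for this had ratios of line #6 to line #3 of 0.484 to 0.563 or 1.51 to 1.77.

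The silencing machinery was read from a list of 48 genes for DNA methylation, small RNA and chromatin, of which 46 were tested and none was called by edgeR or DESeq2. Their log2 fold changes ranged from -0.70 to 2.31, with a median of 0.14, against 0.01 for all tested genes. At an unadjusted p under 0.05 there were 3 higher and 1 lower of the 46, beside 7.38% of all tested genes, and the smallest adjusted p was 0.564 from edgeR. The 4 genes with the smallest p are given by their reads only. *FAS2*, a subunit of chromatin assembly factor 1, had 41 and 40 reads in lines #3 and #6 against 16 in Col-0. *SUVH5*, a histone H3 lysine 9 methyltransferase, had 24 and 11 reads against 3 in Col-0. *RDM1*, which acts in RNA-directed DNA methylation, had 44 and 70 reads in lines #3 and #6 against 80 in Col-0. *IBM1*, a histone demethylase that protects genes from non-CG methylation, had 239 and 233 reads against 150 in Col-0.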

How the data were processed

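The authors deposited the count of reads for each of 33602 genes, without normalization, mapped to TAIR10 according to the submitters' processing notes, which also name CASAVA 1.7. The rule for reads of several places is not given in the sources used here. Blank cells were read as 0 (10499 in line #3 and in Col-0, 10705 in line #6). The deposited RPKM, ratio, q-value and pathway columns of the authors were not used. Genes were matched to RefSeq's TAIR10.1 by locus, where 132 of the 138 members had the same gene model length as in the table, and coordinates and sequences are those of that release. The OE lines, as 2 replicates, were set against Col-0 in edgeR 4.0.16 (TMM, glmQLFit, glmQLFTest; R 4.3.3), with Benjamini-Hochberg adjustment over the 18802 genes that reached 10 reads in 1 or more libraries. The fit had 1 residual and 13.6 prior degrees of freedom, and the prior count was 0.125. SEs were derived from the test, as the size of the log2 fold change (no prior count) over the root of F, and are not standard errors that edgeR reports. Ratios of 2 libraries carry 95% exact (Clopper-Pearson) intervals for counting error only. Direct repeats were found with blastn 2.17.0. Alternatives covered scaling, read minimums, DESeq2 1.42.0 and each line alone. The members, gene lists and named genes were chosen with earlier results of these data known. Named were called members, the study's listed ones, ONSEN, the 10 highest by RPKM, those furthest apart between lines, up to 2 of each class with the most reads, neighbors of called genes, and the silencing genes with the smallest p.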

Additional observations from a re-analysis of the deposited data

Results flagged for a closer look

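The transposable element genes under the minimum of 10 reads, which the test at that minimum did not use, still held reads. Those with at least 1 read entered the alternative with that minimum, and the sum over all ONSEN copies held some of them. Over the 3785 such genes the reads summed to 588 in line #3 and 534 in line #6, against 395 in Col-0. This is 53.9 CPM in line #3 and 45.9 CPM in line #6, above the 40.4 CPM of Col-0, and it was singled out because the sum lay above that of Col-0 in both lines. The genes in this sum were chosen by their low counts, and the sum has no replicate of Col-0. In the same libraries, 371 transposable element genes had at least 1 read in line #3 and 351 in line #6, against 331 in Col-0.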

How the results depend on the processing

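The number of transposable element genes called higher was 3 and the number lower 1. A minimum of 10 reads in each of the libraries left 1 and 0, a minimum of 1 read left 1 and 1, and DESeq2, which gave no adjusted p to AT5G35935, left 1 and 0. AT4G04410 passed under all 6 alternatives (adjusted p of 2.0e-06 to 0.0271). AT4G16870 passed under 3 of the 6, and AT2G11240 under 2 of the 6. AT5G35935, without reads in the OE lines, was left out by the minimum of 10 reads in each library, so its loss there was fixed beforehand. It passed under each alternative that gave it an adjusted p (2.0e-07 to 0.0196 from edgeR). With total reads as the scale AT1G58561 was called in place of AT2G11240, and the log2 fold change of AT1G80020, not called, became 0.01 (-0.04 with TMM). For the summed reads per class, the mean log2 ratio of the lines to Col-0 with total reads as the scale was 0.02 for MUSTANG and 0.19 for hAT, against -0.02 and 0.15 with TMM. Without the member with the most reads it was 0.03 for MUSTANG, 0.22 for hAT, 1.08 for ONSEN members (0.25 with all 5) and 0.68 for the other copia-like genes (with all 4, 1.50 in line #3 and 1.09 in line #6). The cause of these shifts was not tested. The copia-like sum holds AT4G04410 and AT4G16870, put in the class by locus and listed among the study's raised genes, so it does not describe copia elements in general. In the silencing and ONSEN lists, 0 genes were called with total reads as the scale and with DESeq2, the alternatives run for them. Of the ONSEN copies, however, DESeq2 gave an adjusted p to AT1G21945 only. No paired analysis was possible because Col-0 had a single library. Depth limits most members, whose median is 25 to 31 reads.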

Other observations

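A further 16 genes of the table are described with the word transposase but fall outside the rule for the members. Of these, 4 were tested and none was called by edgeR, with 0 at an unadjusted p under 0.05, and their log2 fold changes ranged from -0.60 to 0.19. This list was chosen after the table had been seen.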
